A study of Mus musculus with 2 samples.

Results

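The genes of endoplasmic reticulum (ER) protein folding and of the unfolded protein response were read in adherent liver cells. The cells, which the study calls stromal, came from mice with and without a conditional deletion of Foxf1. The set held 32 genes, chosen by symbol for their role in the pathway, out of 38320 gene entries in each library. All 32 had a row in both libraries, and 31 reached a mean level of at least 1 FPKM (the fragment number divided by transcript length and by library size), as 12684 genes did in all. Derl3, the remaining member, lay just under that level.

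Both groups were adult male C57/Bl6 mice that had received carbon tetrachloride (CCl4), a hepatotoxin, for 5 weeks. Controls were Foxf1 fl/fl littermates, in which both Foxf1 alleles carry loxP sites but no Cre is present. The other group was αSMACreER;Foxf1 fl/fl, in which a tamoxifen-inducible Cre under the smooth muscle actin promoter acts in myofibroblasts and other cells that use that promoter. The study's methods give tamoxifen injections as the way the deletion was induced, and do not say outright whether controls received them. Liver cells were plated for 2 hours, the attached cells were collected, and samples were pooled into 1 library for each genotype. Differences between the libraries therefore have no replicate check, and Foxf1 itself was not analysed here.

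Proteins that enter the ER are folded by chaperones of the lumen and joined by disulfide bonds with the help of protein disulfide isomerases. When unfolded proteins build up, 3 membrane sensors, IRE1α, PERK and ATF6, slow protein synthesis and switch on genes for chaperones and for the removal of misfolded proteins. Cells that secrete much collagen, such as the myofibroblasts that arise from hepatic stellate cells, and hepatocytes, which make the plasma proteins, rely on this machinery.

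The label of the cells was set against marker genes before the pathway was read. The paper reports Des and Acta2 expression in the purified cells and an absence of markers of hepatocytes and Kupffer cells. The 10 stellate cell and myofibroblast markers summed to 236 FPKM in control and 330 FPKM in αSMACreER;Foxf1 fl/fl cells. Des stood at 1.70 and 3.29 FPKM and Acta2 at 7.77 and 5.65 FPKM, while Dcn, named after its values were seen, was the highest of the list at 127 and 186 FPKM. The 10 macrophage markers summed to 10361 and 8753 FPKM, with Clec4f, a Kupffer cell marker, at 1117 and 753 FPKM and Cd68 at 646 and 679 FPKM. Hepatocyte markers summed to 4169 FPKM in control and 1781 FPKM in αSMACreER;Foxf1 fl/fl cells, and 10 of 10 were at least 1.5-fold lower, with none at 0. Neutrophil markers summed to 2033 and 862 FPKM, and 5 of 7 were lower, with S100a8 at 625 and 256 FPKM and S100a9 at 1258 and 504 FPKM. Ly6g, named after its values were seen, stood at 9.82 FPKM in control and at 0 in αSMACreER;Foxf1 fl/fl cells. Csf3r and Cxcr2, also named afterwards, lay above 0. With the length trend described below removed, 3 of the 7 were lower. Of the 12684 genes, 13.2% were lower, or 11.1% with that trend removed. The libraries were thus mixtures in which hepatocyte and Kupffer cell markers were present, unlike in the paper's account. Fewer cells of a type and less RNA per cell cannot be told apart in any value below.

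The depth behind the values was estimated at 9810000 reads for control and 11320000 for αSMACreER;Foxf1 fl/fl cells, from the spacing of the lowest FPKM values. Each log2 difference below is that of FPKM + 0.1, with the control value taken from the αSMACreER;Foxf1 fl/fl value, after the latter was divided by 1.018 to align the median gene. This scale understates the change of genes near 0. Intervals are approximate 95% limits for the counting of reads and hold no variation between animals. A difference of at least 1.5-fold, the size used in the study's methods, is called higher or lower.

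Few of the folding and stress genes differed by that much. Of the 31 members, 1 was higher (3.23%), against 12.8% of the 12684 genes. Another 2 were lower (6.45%), against 13.2% of all genes, and 28 lay within 1.5-fold. Members were split evenly about 0, with 15 above and 16 below, and their median log2 difference was −0.02, against 0.005 for all genes. Their interquartile range of 0.386 was narrower than that of all genes, 0.653, whose levels reach lower. With a minimum mean of 5 FPKM, which all 31 members met, 8.06% of all genes were higher and 11.1% lower, while the members' counts were the same. At 2-fold no member was higher and none lower, against 4.34% and 6.2% of all genes. When the libraries were set to an equal FPKM sum, which moved the median of all genes to 0.206, 6 members were higher and none lower, against 21.9% and 8.71% of all genes.

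The member called higher was Ern1, which encodes the sensor IRE1α. The members called lower were Ppp1r15a, which encodes the phosphatase subunit GADD34, and P4hb, which encodes a protein disulfide isomerase. P4hb, at 1.52-fold, was the called member nearest the threshold, and Atf6, at 1.49-fold higher, lay just outside it. The plot of levels in each library shows that the order of the members was largely kept. Spearman's rho between the libraries was 0.985 over the 31 genes, which share both libraries.

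**Figure D1:**
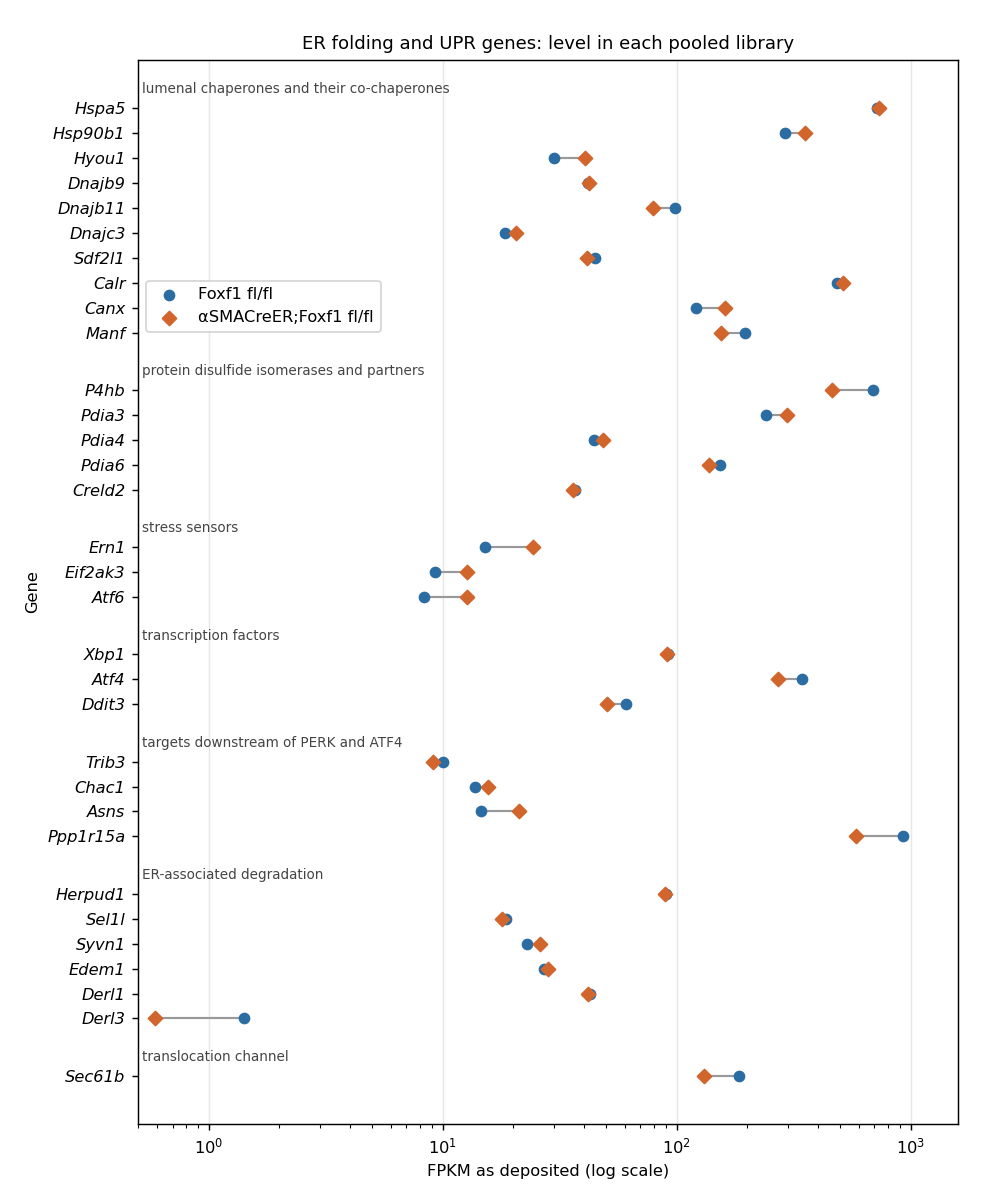
Level of each of the 32 genes in FPKM as deposited, on a log axis, with 1 point for the pooled Foxf1 fl/fl library (blue circle) and 1 for the pooled αSMACreER;Foxf1 fl/fl library (orange diamond), grouped by role. There are no error bars because each genotype had 1 library. The widest gaps at high levels belong to Ppp1r15a (932 and 587 FPKM) and P4hb (692 and 463 FPKM), while Hspa5 (717 and 734 FPKM) has nearly coincident points.

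The lumenal chaperones and their co-chaperones had the largest summed level of the 7 role groups, at 2042 and 2143 FPKM, and held no call in either direction. Hspa5 encodes BiP, the main Hsp70 chaperone of the ER and a standard readout of ER stress. It lies at chr2:34771970-34777547 (GRCm38, plus strand) and stood at 717 FPKM in control and 734 FPKM in αSMACreER;Foxf1 fl/fl cells. Its log2 difference was 0.01, with a counting interval from −0.06 to 0.08, so a change of 1.5-fold was outside the counting error between these libraries.

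Hsp90b1 encodes GRP94, the Hsp90 chaperone of the lumen. It stood at 291 FPKM in control and 354 FPKM in αSMACreER;Foxf1 fl/fl cells, a log2 difference of 0.26 (0.18 to 0.33). Hyou1 encodes GRP170, a large chaperone that exchanges nucleotide on BiP. It stood at 29.8 and 40.6 FPKM, a log2 difference of 0.42 (0.28 to 0.56). Both genes were above 0 beyond counting error but within 1.5-fold. The level of Hspa5 was 24.1 times that of Hyou1 in control and 18.0 times in αSMACreER;Foxf1 fl/fl cells.

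The lectin chaperones, which hold glycoproteins during folding, did not differ by the same amount. Calr (calreticulin, the soluble form) stood at 483 and 515 FPKM, with an interval from −0.00 to 0.13. Canx (calnexin, the membrane-bound form) stood at 121 and 161 FPKM, a log2 difference of 0.39 (0.24 to 0.53). The ratio of Calr to Canx was accordingly 3.98 in control and 3.19 in αSMACreER;Foxf1 fl/fl cells. With the length trend described below removed, the contrast was gone, with Calr at 0.20 and Canx at 0.20. With that trend removed by median transcript instead, Calr was at 0.15 and Canx at 0.50.

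J-domain proteins deliver clients to BiP and start its ATP cycle. Dnajb9 (ERdj4), which also restrains IRE1α, stood at 41.8 and 42.0 FPKM. Dnajc3 (p58IPK), an inhibitor of PERK, stood at 18.5 and 20.5 FPKM, and its interval included 0. Dnajb11 (ERdj3) was different from these, at 98.8 FPKM in control and 79.1 FPKM in αSMACreER;Foxf1 fl/fl cells, a log2 difference of −0.35 (−0.45 to −0.24).

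Sdf2l1, a partner of Dnajb11, stood at 44.6 and 41.6 FPKM with an interval that included 0. Manf, a secreted stress-induced factor that binds BiP, stood at 196 and 155 FPKM, a log2 difference of −0.37 (−0.53 to −0.21). Manf shares 146 bases of exon with Dcaf1 on the opposite strand (7.36 and 12.4 FPKM), where reads of both genes cannot be told apart without strand. Of the 10 chaperone genes, 6 were above 0 and 4 below.

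The promoters of several of these genes carry the ER stress response element (ERSE), which the transcription factors ATF6 and XBP1 bind together with NF-Y. RefSeq promoter windows (GRCm38.p6, 250 bases before to 50 after the start) were at hand for 28 of the 32 members, with none for Atf6, Derl1, Hyou1 and Manf. Its letters, CCAAT and CCACG with 9 bases of any kind between them, were searched on both strands and were found in 9 of the 28 windows (32.1%), against 0.137% of 27025 gene promoters. The 9 genes were Hspa5, Hsp90b1, Dnajc3, Calr, Canx, Pdia6, Creld2, Syvn1 and Derl3. Membership was set by knowledge of the pathway, which includes such elements, so this share describes the set and tests nothing. The stretches below show the elements in genes whose levels span a wide range. The search fixed the letters of both ends and their spacing, so only the 9 bases between them could differ. Capitals mark the ERSE, read as CCAAT to CCACG on the gene's strand or as CGTGG to ATTGG where it lies in reverse.
Hspa5, chr2:34772010-34772058, plus strand: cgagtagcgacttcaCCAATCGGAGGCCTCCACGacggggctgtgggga
Canx, chr11:50325785-50325833, minus strand: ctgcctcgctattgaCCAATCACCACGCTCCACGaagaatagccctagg
Pdia6, chr12:17266476-17266524, plus strand: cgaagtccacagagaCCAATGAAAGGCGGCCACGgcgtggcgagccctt
Calr, chr8:84847060-84847108, minus strand: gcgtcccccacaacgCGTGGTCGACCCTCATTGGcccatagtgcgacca
Creld2, chr15:88819505-88819553, plus strand: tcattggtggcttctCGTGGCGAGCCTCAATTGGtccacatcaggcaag

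Hsp90b1 held 2 elements, 1 in each orientation, in a stretch that runs from 227 to 74 bases before the start. Capitals again mark the ERSE.
Hsp90b1, chr10:86705518-86705671, minus strand: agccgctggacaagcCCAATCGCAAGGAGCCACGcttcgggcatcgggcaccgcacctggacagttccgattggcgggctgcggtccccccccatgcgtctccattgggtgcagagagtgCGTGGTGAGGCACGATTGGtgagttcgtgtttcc

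The 8 members with an ERSE that reached 1 FPKM had log2 differences from −0.19 (Pdia6) to 0.39 (Canx), with a median of 0.10. The 19 members with a promoter window but no ERSE ranged from −0.69 (Ppp1r15a) to 0.65 (Ern1), with a median of −0.05. The 3 members past 1.5-fold were among these 19, and whether the element bears on the differences was not tested. The related UPRE letters TGACGTGG, whose CGTGG end can overlap a reversed ERSE, were in 0 of the 28 windows and in 0.714% of all promoters.

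The protein disulfide isomerases make and reshuffle disulfide bonds, and they held 1 of the 2 lower calls. P4hb encodes protein disulfide isomerase, which is also the β subunit of collagen prolyl 4-hydroxylase. It lies at chr11:120560298-120573253 (GRCm38, minus strand) and stood at 692 FPKM in control and 463 FPKM in αSMACreER;Foxf1 fl/fl cells. The log2 difference was −0.60 (−0.67 to −0.54), from an estimated 3874 and 2994 reads. It was −0.58 with values as deposited, −0.58 with the length trend described below removed, and −0.40 when both libraries were set to an equal FPKM sum, so that the call is lost under each while the sign is kept.

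Pdia3 (ERp57), the isomerase that works with calnexin and calreticulin, stood on the other side of 0. It had 240.3 FPKM in control and 295 FPKM in αSMACreER;Foxf1 fl/fl cells, a log2 difference of 0.27 (0.17 to 0.37). Pdia6 stood at 154 and 137 FPKM, a log2 difference of −0.19 (−0.33 to −0.05) that turned to 0.01 at an equal FPKM sum. Pdia4 stood at 44.4 and 48.3 FPKM, and Creld2, a stress-induced partner of these enzymes, at 36.7 and 35.9 FPKM, both with intervals that included 0.

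The makeup of the isomerase pool therefore differed between the libraries. P4hb held 61.2% of the summed FPKM of P4hb, Pdia3, Pdia4 and Pdia6 in control cells and 49.1% in αSMACreER;Foxf1 fl/fl cells, a measure that no scaling between libraries can move. Pdia3 held 21.3% and 31.3%. The ratio of P4hb to Pdia3 was 2.88 in control and 1.57 in αSMACreER;Foxf1 fl/fl cells. The sum of the 4 genes was 1130 FPKM and 944 FPKM.

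**Figure D2:**
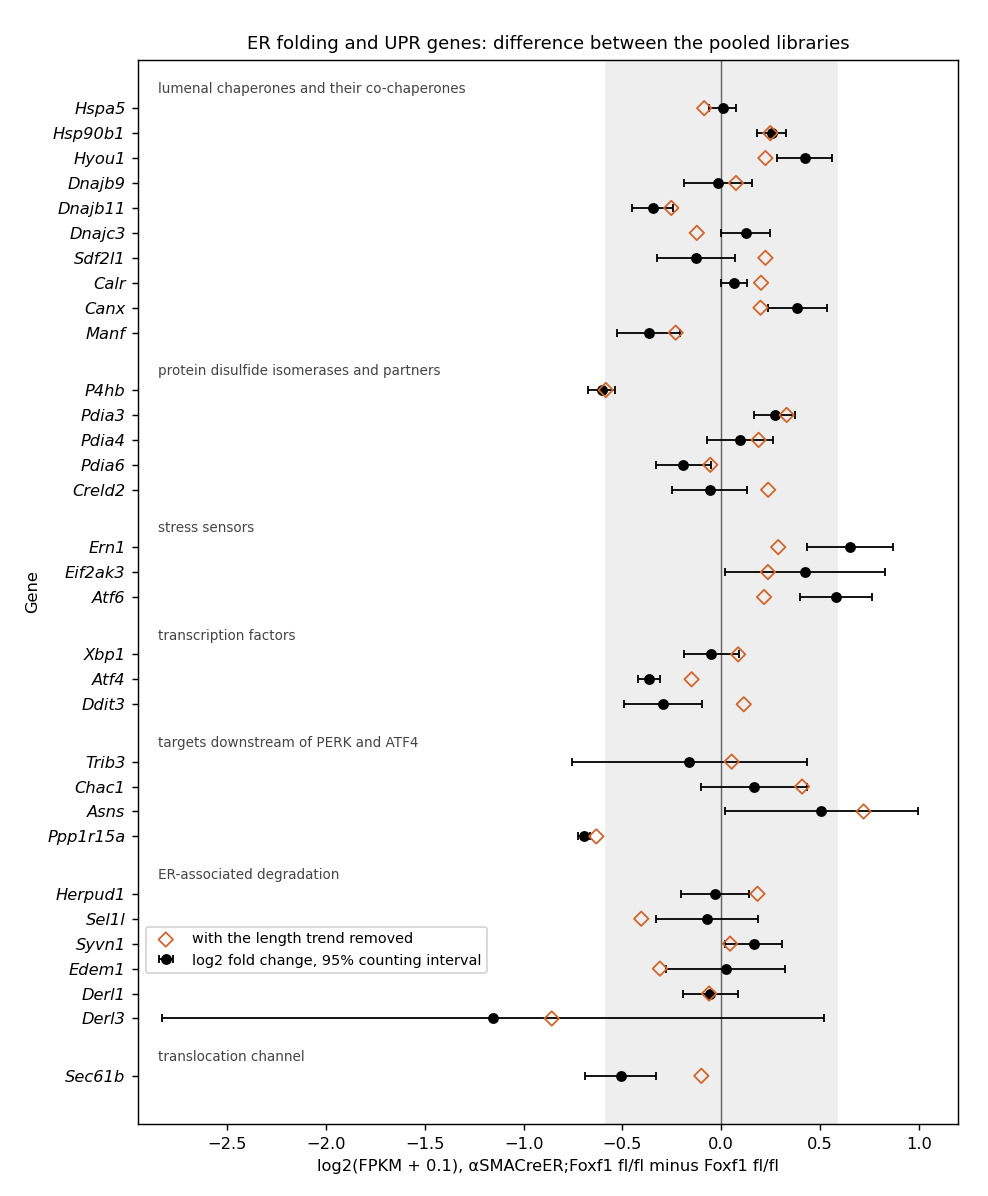
Difference of each of the 32 genes between the pooled libraries as log2(FPKM + 0.1), αSMACreER;Foxf1 fl/fl minus Foxf1 fl/fl, with the approximate 95% counting interval (black) and the same difference after the length trend over all genes was removed (open diamond). The grey band spans 1.5-fold either way. Ern1 lies to the right of the band, Ppp1r15a and P4hb to its left with short intervals, and Derl3, from 7 and 3 estimated reads, has an interval wider than the band.

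The 3 stress sensors were the least abundant role group and all lay above 0. Ern1 encodes IRE1α, the kinase and endoribonuclease that splices Xbp1 mRNA. It lies at chr11:106394650-106487852 (GRCm38, minus strand) and stood at 15.1 FPKM in control and 24.2 FPKM in αSMACreER;Foxf1 fl/fl cells. The log2 difference was 0.65 (0.43 to 0.87), or 1.57-fold, from an estimated 261 and 482 reads.

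Atf6 encodes the sensor that is cut in the Golgi to release a transcription factor. It stood at 8.34 and 12.7 FPKM, a log2 difference of 0.58 (0.40 to 0.76). Eif2ak3 encodes PERK, the kinase that phosphorylates eIF2α. It stood at 9.24 and 12.7 FPKM, a log2 difference of 0.42 (0.02 to 0.83). The αSMACreER;Foxf1 fl/fl library was the higher one for each of the 3 genes, under each scaling tried.

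The 3 sensors differed in near proportion. Their summed level was 32.7 FPKM in control and 49.6 FPKM in αSMACreER;Foxf1 fl/fl cells, of which Ern1 made up 46.2% and 48.8%, Eif2ak3 28.3% and 25.5%, and Atf6 25.5% and 25.7%. The sensors also have long transcripts, up to 6946 bases for Ern1 and 7246 bases for Atf6, and length moved with the differences over all genes.

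Across the 12684 genes, the log2 difference and the length of the longest annotated transcript had a Spearman's rho of 0.452, as a description over genes of 1 pair of libraries. Over the 31 members it was 0.489. The 15 members of at most 2461 bases had a median log2 difference of −0.06 with 4 above 0, and the 16 of at least 2513 bases had a median of 0.14 with 11 above 0. The 20 length groups of all genes ran from a median of −0.41 among short transcripts to 0.49 for the longest. With each gene set against the median of its length group, Ern1 was at 0.29, Eif2ak3 at 0.24 and Atf6 at 0.22, and no sensor passed 1.5-fold. Of the 31 members, 1 was then higher (Asns) and 1 lower (Ppp1r15a), against 9.97% and 11.1% of all genes. With groups by the median transcript instead, Ern1 was at 0.59 and passed, and 2 members were higher and 1 lower, against 12.4% and 11.5% of all genes. Whether the trend comes from the libraries or from the cells was not tested.

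**Figure D3:**
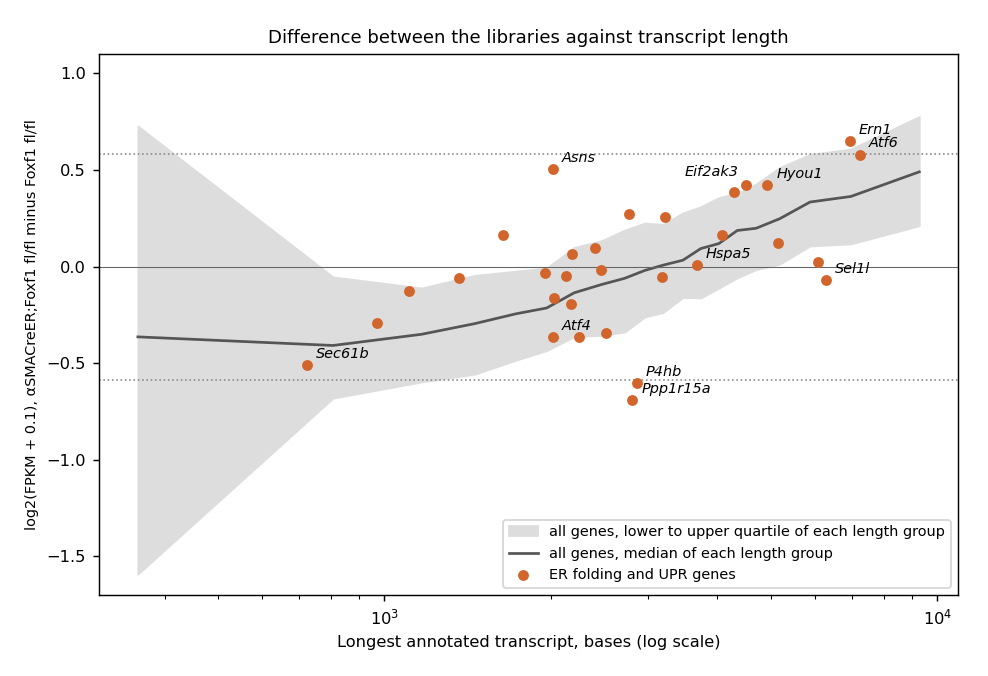
Log2 difference, αSMACreER;Foxf1 fl/fl minus Foxf1 fl/fl, against the longest annotated transcript in bases (log axis) for the 31 members with a mean of at least 1 FPKM (orange points). The line and grey band give the median and quartiles of all 12684 genes in 20 length groups, and the dotted lines mark 1.5-fold. Ern1, Atf6, Hyou1 and Sec61b lie within or near the grey band for their length, whereas Ppp1r15a, P4hb and Asns lie well away from its median line.

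Downstream of the sensors, none of the 3 transcription factors passed 1.5-fold. Xbp1, the target of IRE1α, stood at 92.1 and 90.6 FPKM, a log2 difference of −0.05 (−0.19 to 0.09). These values count both forms of the mRNA, so the spliced share was not measured. Atf4, whose mRNA is translated when eIF2α is phosphorylated, stood at 344 FPKM in control and 272 FPKM in αSMACreER;Foxf1 fl/fl cells. Its log2 difference was −0.36 (−0.42 to −0.31), and −0.15 with the length trend removed.

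Ddit3 encodes CHOP, a factor induced by ATF4 under lasting stress. It stood at 60.7 and 50.4 FPKM, a log2 difference of −0.29 (−0.49 to −0.10) that was −0.09 at an equal FPKM sum and turned to 0.11 with the length trend removed. Atf4 and Ddit3 kept their proportion, with Atf4 at 5.67 times Ddit3 in control and 5.40 times in αSMACreER;Foxf1 fl/fl cells. Ddit3 shares 68 bases of exon with Mars on the opposite strand (20.2 and 21.9 FPKM), and whether reads were assigned by strand is not given in the sources used here.

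Ppp1r15a showed the largest difference among the 31 members under the median-ratio scaling. Its product GADD34 brings protein phosphatase 1 to eIF2α and so ends the translational block set by PERK. The gene lies at chr7:45522916-45526268 (GRCm38, minus strand). It was the most abundant member in control cells at 932 FPKM, and was second to Hspa5 in αSMACreER;Foxf1 fl/fl cells at 587 FPKM. The log2 difference was −0.69 (−0.72 to −0.66), or 1.62-fold lower, from an estimated 19517 and 14183 reads. It was −0.63 and −0.81 with the length trend removed by longest and by median transcript, and −0.49, inside the threshold, at an equal FPKM sum. The ratio of Ppp1r15a to Eif2ak3, the phosphatase subunit to the kinase of the same step, was 101 in control and 46.4 in αSMACreER;Foxf1 fl/fl cells. Part of that gap is the Eif2ak3 difference of 0.42 (0.02 to 0.83), from an estimated 78 and 124 reads. It was 0.24 with the length trend removed. Ppp1r15b, the constitutive relative of Ppp1r15a, stood at 57.6 and 59.8 FPKM, a log2 difference of 0.03.

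Ppp1r15a is also an immediate response gene, so genes induced by tissue dissociation were read beside it. Over 10 such genes the summed level was 2416 FPKM in control and 2019 FPKM in αSMACreER;Foxf1 fl/fl cells, with none at 0. None was higher and 1 (10.0%) was lower, against 12.8% and 13.2% of all genes, and 6 lay above 0 and 4 below. The lower one was Ier2 at 115 and 69.4 FPKM, named after its values were seen. The most abundant, Junb and Zfp36, also named afterwards, lay below 0 as Ppp1r15a did, with Junb at 989.6 and 692 FPKM and Zfp36 at 783 and 623 FPKM. Fos stood at 96.5 and 113 FPKM and Fosb at 38.9 and 43.2 FPKM, above 0. The part of cell handling in the Ppp1r15a difference was not tested.

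The remaining 3 members of this role lay within 1.5-fold. Asns, asparagine synthetase, stood at 14.6 FPKM in control and 21.2 FPKM in αSMACreER;Foxf1 fl/fl cells, a log2 difference of 0.51 (0.02 to 0.99). It was at 0.72 with the length trend removed, which placed it past 1.5-fold. The estimate of 53 and 89 reads behind it rests on a median annotated transcript of 568 bases. Its longest transcript has 2016 bases, on which the same FPKM would mean more reads. Chac1, which degrades glutathione, stood at 13.7 and 15.7 FPKM, and Trib3, a pseudokinase that restrains ATF4, at 9.98 and 9.07 FPKM. Both had intervals that included 0. The Trib3 interval, from −0.76 to 0.43, also included a change of 1.5-fold in the lower direction. Its estimated 43 and 45 reads likewise rest on a short median transcript, of 639 bases.

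The core of the composite element that ATF4 binds with C/EBP factors, TGATGNAA, was searched on both strands of the promoter windows. It was in 4 of 28 members (Trib3, Chac1, Asns and Herpud1; 14.3%), against 4.51% of all promoters. Ppp1r15a alone had the cAMP response element letters TGACGTCA (3.57% of members, against 2.03% of promoters). Herpud1 held both an ATF4 core and an ERSE-II (ATTGG and CCACG with 1 base between them), which was in 7.14% of members (Dnajb11 is the other) and 0.0444% of promoters. The ATF4 core of Trib3 and the ERSE-II of Dnajb11 lay after the start. As with the ERSE, membership was set by knowledge of the pathway, so these shares describe the set and test nothing. The stretches of 4 genes are shown as 1 or more examples of each element, which is in capitals.
Asns, chr6:7693210-7693247, minus strand: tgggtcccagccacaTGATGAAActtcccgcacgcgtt
Chac1, chr2:119351034-119351071, plus strand: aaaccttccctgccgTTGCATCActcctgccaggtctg
Ppp1r15a, chr7:45526269-45526295, minus strand: accccgcctctccggTGACGTCAgcac
Herpud1, chr8:94386302-94386402, plus strand: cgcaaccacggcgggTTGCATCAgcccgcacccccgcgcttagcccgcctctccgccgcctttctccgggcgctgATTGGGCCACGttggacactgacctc

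Genes of ER-associated degradation, which carries misfolded proteins to the proteasome, lay close to 0 apart from Derl3. Herpud1, a stress-induced scaffold of the degradation complex, stood at 89.6 and 89.3 FPKM. The ubiquitin ligase Syvn1 (HRD1) stood at 22.9 and 26.1 FPKM, a log2 difference of 0.16 (0.02 to 0.31), and shares 91 bases of exon with Mrpl49 on the opposite strand (6.21 and 5.29 FPKM). Its partner Sel1l stood at 18.6 and 18.0 FPKM, with an interval that included 0. Sel1l has a longest transcript of 6300 bases and was at −0.40 with the length trend removed, but at −0.05 by median transcript.

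Edem1, which hands over misfolded glycoproteins, stood at 27.2 and 28.2 FPKM, and Derl1, a channel component, at 42.4 and 41.6 FPKM. Both intervals included 0. A stretch of the Derl1 transcript was at least 95% identical to 1 other gene, which was under 1 FPKM. The 5 members of this role that reached 1 FPKM ranged from −0.07 to 0.16.

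Derl3, a derlin typical of secretory cells, was near the limit of detection at 1.41 FPKM in control and 0.589 FPKM in αSMACreER;Foxf1 fl/fl cells. With an estimated 7 and 3 reads, its log2 difference of −1.15 had an interval from −2.83 to 0.52. Plasma cells are a known site of Derl3, and their marker Jchain stood at 78.8 and 26.0 FPKM and Mzb1 at 13.3 and 6.25 FPKM. Over the 10 B and plasma cell markers the sum was 227 and 175 FPKM, and 1, Tnfrsf17, was at 0 in αSMACreER;Foxf1 fl/fl cells. Of the 9 that reached 1 FPKM, 2 (22.2%) were lower, against 13.2% of all genes. The part of plasma cells in the Derl3 values was not tested.

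Sec61b, a subunit of the channel through which proteins enter the ER, stood at 184 FPKM in control and 132 FPKM in αSMACreER;Foxf1 fl/fl cells. The log2 difference was −0.51 (−0.69 to −0.33). Its longest transcript of 723 bases is the shortest of the members, and with the length trend removed the difference was −0.10. Parts of it, 22.8% of the transcript, were at least 95% identical to 3 other genes, each under 1 FPKM.

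In all, 9 of the 31 members had counting intervals above 0, 8 below 0 and 14 that included 0. Over all genes, 21.4% had intervals above 0 and 22.7% below. Summed over the 32 genes, the level was 5095 FPKM in control and 4553 FPKM in αSMACreER;Foxf1 fl/fl cells, or 0.675% and 0.683% of all FPKM.

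The wider pathway was read from 5 lists of 134 further genes. Of these, 127 reached 1 FPKM, 8 (6.30%) were higher and 14 (11.0%) lower, against 12.8% and 13.2% of all genes, with a median log2 difference of −0.10. The same shares of all genes stand behind the count of each list. In the list of other folding and glycan control genes, 1 of 22 (4.55%) was higher and none lower. That 1 was Mesd, a chaperone of lipoprotein receptors, at 13.1 and 22.7 FPKM. Erp29, the most abundant of them, stood at 153 and 122 FPKM, and Erp44, which retains proteins of the secretory path, at 71.1 and 49.3 FPKM with a log2 difference of −0.56.

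Among genes of translocation, signal peptidase and glycan transfer, 3 of 30 (10.0%) were higher and 3 lower, both near the shares of all genes. Sec61g, another subunit of the channel of Sec61b, was the most abundant by the mean of both libraries and the furthest below 0. It stood at 173 FPKM in control and 101 FPKM in αSMACreER;Foxf1 fl/fl cells, a log2 difference of −0.81 (−0.96 to −0.65). It stayed past 1.5-fold at −0.59 with the length trend removed. Of the 4 Sec61 subunits, 2 lay below 0. Sec61a1 and Sec61a2, named after their values were seen, lay above 0 at 0.12 and 0.48, with intervals that included 0. Tram2, a translocation partner linked to collagen synthesis, stood furthest above 0, at 1.41 and 3.74 FPKM, a log2 difference of 1.32 (0.87 to 1.77).

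Among other genes of ER-associated degradation, 2 of 25 were higher and none lower. Vcp, the ATPase that pulls clients from the membrane, stood at 94.9 and 96.5 FPKM. Faf2, a recruiter of Vcp, was higher at 10.5 and 19.95 FPKM, a log2 difference of 0.89 (0.50 to 1.28). Ube2g2, the ubiquitin-conjugating enzyme of the pathway, stood at 53.7 and 39.0 FPKM, a log2 difference of −0.49.

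Lower calls were most numerous in the list of other targets of ATF4 and the integrated stress response. It held none higher and 8 lower of 28 (28.6%), against 13.2% of all genes, and its median was −0.17. The 8 were Atf5, Cebpb, Phgdh, Fgf21, Gdf15, Eif4ebp1, Cth and Pycr1. With the length trend removed 4 were lower (Phgdh, Fgf21, Cth and Pycr1), and at an equal FPKM sum 5 were lower and 2 higher, with the list's median at 0.03. Over all genes, 11.1% were lower with the length trend removed, and 8.71% were lower and 21.9% higher at an equal FPKM sum.

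Cebpb, a transcription factor of inflammation and of the ATF4 program, was the most abundant of that list at 678 FPKM in control and 401 FPKM in αSMACreER;Foxf1 fl/fl cells, a log2 difference of −0.79 (−0.83 to −0.74). Fgf21, a hormone that hepatocytes secrete, was lowest relative to control at 2.37 and 0.623 FPKM, a log2 difference of −1.79 (−3.03 to −0.55). Slc7a1, a transporter of cationic amino acids, stood furthest above 0 at 9.48 and 13.2 FPKM, a log2 difference of 0.45. Several of these genes are also expressed by hepatocytes, whose marker Alb stood at 2292 and 912 FPKM and Ttr at 322 and 86.8 FPKM in the same libraries. Their part in the lower levels was not tested.

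Among other signalling components, 2 of 22 (9.09%) were higher and 3 (13.6%) lower. Tmbim6, a membrane protein that restrains IRE1α, was the most abundant at 450.0 and 405 FPKM. Eif2ak4 encodes GCN2, the eIF2α kinase that responds to lack of amino acids, and was highest relative to control at 2.96 and 7.74 FPKM, a log2 difference of 1.33 (1.06 to 1.60). Creb3l3, a membrane-bound factor typical of hepatocytes and gut, was lowest at 5.09 and 2.08 FPKM, a log2 difference of −1.28 (−2.13 to −0.42).

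**Figure D4:**
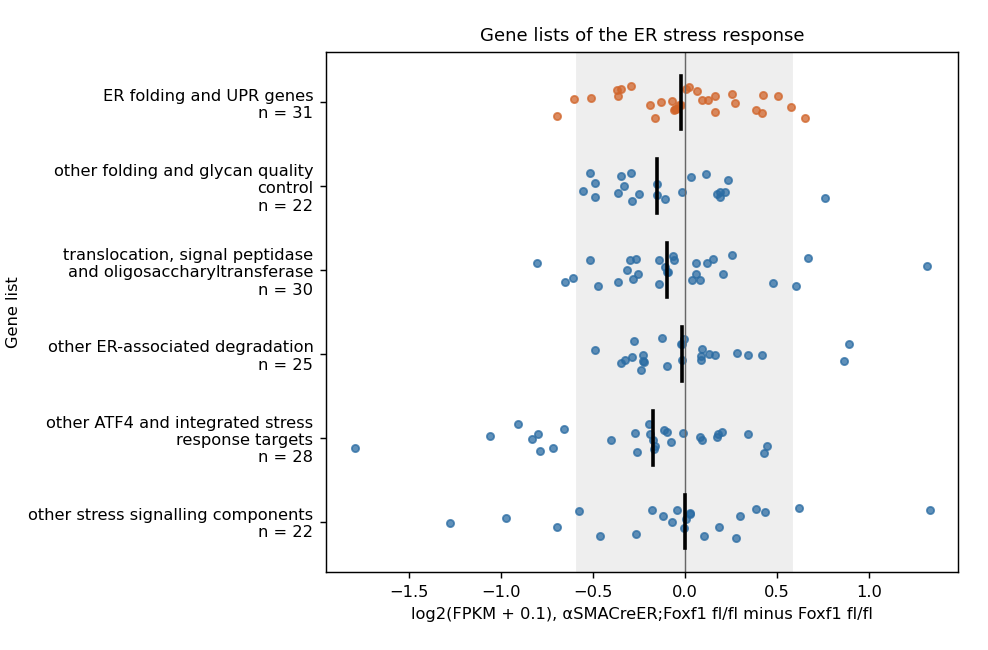
Log2 difference, αSMACreER;Foxf1 fl/fl minus Foxf1 fl/fl, of each gene with a mean of at least 1 FPKM in the set of folding and stress genes (orange) and in 5 lists of further pathway genes (blue), with black bars at the medians and a grey band for 1.5-fold. Points are spread vertically only for legibility. The ATF4 and integrated stress response list has 8 points to the left of the band and none to its right, while the first row has 2 to the left and 1 to the right.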

How the data were processed

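Adherent liver cells were pooled into 1 library per genotype with the TruSeq RNA kit and sequenced as single-end reads of 75 bases, at a depth per the labels near that estimated here. The authors ran Tophat and Cufflinks and deposited FPKM values for Ensembl genes. Versions are not given in the sources used here. The submitters' processing notes name TopHat, DESeq and mm10. The authors' fold changes came from a separate quantification that was not repeated.

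Symbols, positions and transcript lengths were taken from GENCODE M21 (GRCm38), which gave a symbol to 36490 of 38320 entries (95.2%), of which 36402 overlapped their gene. For a repeated symbol the entry with the highest mean was kept, and 3 entries whose status was not OK were left out. Values were scaled by the median ratio of 11866 genes at 1 FPKM or more in both libraries. FPKM values are not counts, so no count model was fitted, and with 1 library per genotype no p-value is given. Reads were estimated from the spacing of low values on 8072 single-transcript genes, with an assumed fragment of 200 bases. Of these low values 52.9% and 55.3% came within 0.1 of a whole number of reads, which makes the depth rough. Counts for intervals were placed on the median transcript length. The length trend was removed by the medians of 20 groups. Promoters were RefSeq windows, and for 22 of 28 the first 30 bases after the start occurred in a GENCODE transcript of the gene. Near-identical copies (95% over 75 bases or more) were sought with BLAST 2.17.0.

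The members and lists were chosen with earlier results of these data known. All 32 members were named. In each pathway list the most abundant gene, the largest rise and the largest fall were named, and in each of 9 marker lists the first 2 genes were eligible. The first genes of the endothelial list were Pecam1 (93.3 and 96.6 FPKM in control and αSMACreER;Foxf1 fl/fl) and Cdh5 (98.4 and 113 FPKM). Summed endothelial markers were 813 and 821 FPKM, cholangiocyte markers 553 and 655 FPKM, T and NK cell markers 107 and 123 FPKM, stellate markers 236 and 330 FPKM and macrophage markers 10361 and 8753 FPKM. Foxf1, Hm13 and Slc7a5 were not analysed here. Simulated libraries were used to test the procedure. Alternatives changed the pseudocount, scaling, filter, threshold, length trend and repeated entries. Calculations ran in Python 3.11.15 (pandas 2.3.3, numpy 2.4.6, matplotlib 3.10.9, scipy 1.17.1).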

Additional observations from a re-analysis of the deposited data

How the results depend on the processing

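The number of members higher and lower was 1 and 2 as reported. It was 2 and 1 with FPKM as deposited, 2 and 1 with upper-quartile scaling, and 6 and 0 with an equal FPKM sum. Of all genes, 12.8% and 13.2% were higher and lower as reported. The shares were 13.7% and 12.4% as deposited, and 14.3% and 12.1% with upper-quartile scaling. The equal sum moved the median of all genes to 0.206 and that of the members to 0.18, so relative to all genes the members again lay near 0, and 21.9% of all genes were then higher and 8.71% lower. With the length trend removed, 1 was higher (Asns in place of Ern1) and 1 lower, against 9.97% and 11.1% of all genes. By median transcript, an alternative chosen after seeing the data, 2 were higher and 1 lower, against 12.4% and 11.5%. At 2-fold the counts were 0 and 0, against 4.34% and 6.2% of all genes. Over the pathway lists, 8 were higher and 14 lower as reported, and 14 and 8 with an equal FPKM sum. They were 3 and 9 after removal of the length trend, and 2 and 3 at 2-fold. The shares of all genes given here for each setting stand behind these counts too. The equal sum took 24 of the 32 members outside their own counting intervals and changed the sign of 9. Removal of the length trend did so for 16 and 10. Pseudocounts of 1 and 0.01 and the summing of repeated entries took none outside. No member called in one direction was called in the other under any of these settings. No paired analysis was possible because there was a single library for each genotype, and leaving out a replicate was not possible for the same reason. By the reads estimated on median transcripts, depth limits Derl3, Trib3 and Asns most.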

Other observations

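Subunits of eIF2B, the exchange factor that phosphorylated eIF2α blocks, were grouped after their values were seen. All 5 of 5 lay below 0, from −0.97 to −0.12 on the log2 scale, and from −0.76 to −0.21 with the length trend removed. Of all genes, 50.4% lay above 0. The counting intervals of Eif2b3 (−0.64 to 0.41) and Eif2b4 (−1.20 to 0.05) included 0. At an equal FPKM sum Eif2b3 was at 0.08. Their summed level was 99.2 FPKM in Foxf1 fl/fl and 64.7 FPKM in αSMACreER;Foxf1 fl/fl cells. Of the 5, 2 were lower, against 13.2% of all genes: Eif2b1 at 11.8 and 6.09 FPKM, and Eif2b2 at 57.8 and 36.4 FPKM. The 4 eIF2α kinases, grouped in the same way, summed to 40.1 and 59.7 FPKM. Of the 4, 2 were higher, Eif2ak4 (GCN2) and Eif2ak2 (PKR, which responds to double-stranded RNA), against 12.8% of all genes. Eif2ak2 stood at 19.7 and 30.9 FPKM, a log2 difference of 0.62, or 0.44 with the length trend removed. Eif2ak1, the kinase that responds to lack of heme, stood at 8.23 and 8.37 FPKM.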
